A study of Rattus norvegicus with 20 samples.

Results

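The genes described here encode the nuclear parts of the oxidative phosphorylation machinery in the rat liver. They were taken by symbol from the array's annotation: a probe set had to carry exactly 1 gene symbol, and that symbol had to begin with Ndufa, Ndufb, Ndufc, Ndufs, Ndufv, Uqcr, Cox4 to Cox8 or Atp5, or be Sdha, Sdhb, Sdhc or Sdhd. Where a gene had several, its brightest probe set was used. The rule gave 86 genes of 14217 with 1 symbol. Of these, 76 encode subunits of complexes I to V (34 of complex I, 4 of complex II, 7 of complex III, 16 of complex IV and 15 of complex V). The other 10 carry a matching symbol without being a subunit: 6 complex I assembly factors, Cox7a2l, Ndufa4l2, the pseudogene Cox6c-ps1, and Atp5if1, the inhibitor of the ATP synthase.

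Liver RNA was measured on Affymetrix expression arrays in male Sprague-Dawley rats, 1 array per rat and 5 rats per diet. One group ate a lignan-free diet, and the others a diet with 0.2% sesamin, 0.2% episesamin or 0.2% sesamolin. Feeding lasted 15 d and began after 7 d of acclimatisation in rats that arrived at 4 weeks of age. Each group held 7 rats, and the heaviest and the lightest were left out. Time, sex and strain were the same on all 20 arrays, and the dose was the same for every lignan. The diets ask what these lignans of sesame seed do to gene expression in the liver. Sesamin and episesamin are epimers that differ in configuration where a methylenedioxyphenyl group joins the furofuran core, and in sesamolin an ether oxygen links one such group to that core.

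Oxidative phosphorylation passes electrons from NADH through complex I, and from succinate through complex II, to ubiquinone. Complex III hands them to cytochrome c and complex IV to oxygen, protons are pumped by complexes I, III and IV, and complex V (the ATP synthase) uses the gradient to make ATP. In the liver this chain takes up the electrons that fatty acid oxidation releases. A part of the core of complexes I, III, IV and V is encoded by mitochondrial DNA and is not among the genes described here.

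Levels are given as quantile normalized intensity, and log2 changes were taken after an offset of 5.85 was added, which makes the changes of dim genes smaller. A gene was tested if it exceeded an intensity of 17.8 on at least 5 of the 20 arrays, and 82 of the 86 genes were. The 4 that were not are Cox4i2, Cox6a2, Cox7b2 and Cox8b, all isoforms of complex IV subunits with a restricted tissue range. Their values stayed between 0.516 (Cox7b2) and 29.3 (Cox6a2). Of the tested genes 79 exceeded the filter on all 20 arrays, and 3 did so on some only: Cox6b2 on 5, Ndufa4l2 on 11 and Cox7a1 on 14. A gene is called changed where limma's adjusted p (Benjamini-Hochberg over all 11576 genes tested in the comparison, two-sided) is below 0.05.

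Marker genes matched the labelled tissue: all 7 hepatocyte markers passed the filter and none was called with any lignan. Of 7 muscle markers Mb, Acta1, Myh6, Tnni3 and Tnnt2 did not pass it, while Ckm, a muscle creatine kinase, rose with episesamin by 0.86 ± 0.22 in log2 (adjusted p = 0.0282, limma). Myh7, which also passed it, was not called. The 7 muscle markers summed to between 36.6 and 69.3 without lignan and between 34.4 and 70.7 with sesamin. The sum ran from 53.7 to 116 with episesamin and from 52.7 to 85.5 with sesamolin. These sums are low, since most of the 7 genes lay under the filter. Mean array intensity before normalization was 247 ± 29.2 (SD, n = 5) in the lignan-free group, 236 ± 27.6 with sesamin, 213 ± 36.1 with episesamin and 221 ± 45.3 with sesamolin. Of 6 arrays with a mean under 200, 2 were in the episesamin group, 2 in the sesamolin group and 1 in each other group. Markers of Kupffer cells and macrophages, summed over 6 genes, ran from 3472 to 4377 in the lignan-free group, from 2520 to 4010 with sesamin, from 2608 to 3328 with episesamin and from 1889 to 2809 with sesamolin. All 6 had negative log2 changes with every lignan, and the number called lower was 0 with sesamin, 1 with episesamin (Cd5l) and 4 with sesamolin (Cd5l, Clec4f, Adgre1 and Csf1r). The summed level of 4 endothelial markers ran from 2470 to 2914 without lignan, from 1938 to 2292 with episesamin and from 1928 to 2401 with sesamolin, and Lyve1 and Kdr were called lower with both. No marker of stellate cells, bile duct, red blood cells, lymphocytes or neutrophils was called with a lignan against the lignan-free diet. The mean stellate sum was 3813 without lignan and 3243, 3223 and 2975 with sesamin, episesamin and sesamolin. In the same order it was 223, 227, 134 and 170 for lymphocytes and neutrophils. For bile duct it was 187, 181, 211 and 240, and for red blood cells 472, 358, 479 and 464. In each of these lists the arrays of every lignan overlapped the lignan-free range. The part of these shifts in the values given next was not tested, and in whole liver RNA fewer cells of a type and less RNA per cell cannot be told apart.

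With episesamin 6 of the 82 tested genes rose and 1 fell, and with sesamolin 7 rose and 1 fell. With sesamin none was called in either direction, and 3 had an unadjusted p below 0.05 (limma), as did 863 of all genes. None was called with sesamin in any of the 33 settings tried. The called subunits were 6 of complex I (Ndufa3, Ndufab1, Ndufa12, Ndufb9, Ndufc1 and Ndufs7), Uqcrc1 of complex III and Atp5mk of complex V, and outside the complexes Ndufaf7 and Ndufa4l2. No subunit of complex II or complex IV was called in any of the 6 comparisons. Some alternatives did call such subunits. With trended and robust eBayes these were Sdhc and Cox8a with episesamin, Cox7b and Cox8a with sesamolin, Cox8a between episesamin and sesamin, and Cox6a1 and Cox8a between sesamolin and sesamin. With array brightness in the model Cox6a1 was called with sesamolin and between sesamolin and sesamin, and with 1 array left out the dim genes Cox6b2 or Cox7a1 were called with episesamin in 3 fits. Cox6b2 passed the filter on no episesamin array. It was tested only because of groups in which it was higher, so its calls are no evidence on the set. Changes were small. Against no lignan, Ndufa3 had the largest of the called subunits, 1.42-fold with episesamin. The other calls of subunits, that of Ndufa3 with sesamolin among them, lay between 1.19-fold and 1.30-fold in size.

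Over all 11576 genes, episesamin raised 2.91% and lowered 2.21%, against 7.32% and 1.22% of the 82 tested members. Sesamolin raised 3.28% and lowered 2.95% of all genes, against 8.54% and 1.22% of the members. Sesamin raised 0.397% and lowered 0.0346% of all genes and no member. An F test over the 4 diets called 4.89% of all genes and 7 members (8.54%), which were Ndufa3, Ndufaf7, Ndufab1, Ndufa12, Ndufa4l2, Ndufb9 and Atp5mk. The share of members that rose was thus above the share of all genes with episesamin and sesamolin, and the share that fell was below it. The order of the shares that rose held in 31 of the 33 settings with episesamin and in 29 with sesamolin. It turned under median scaling (1.22% of members against 1.56% of all genes with episesamin, 0% against 1.54% with sesamolin) and without the 6 arrays whose mean was under 200 (1.22% against 1.43%, and 1.22% against 1.87%). With sesamolin it also turned in the fit to the 2 groups alone (1.22% against 1.81%) and without lignan-free array 1 (2.44% against 2.51%). Some shares that kept the order were near ties, such as 2.44% against 2.41% with sesamolin without sesamolin array 1. The settings refit the same data, so they do not count as separate support.

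These shares count Ndufa4l2, Cox6b2 and Cox7a1, which passed the filter on some arrays only. Over the 79 members and 8572 genes above the filter on all 20 arrays, episesamin raised 5 members (6.33%, against 3.48% of the genes) and sesamolin 7 (8.86%, against 3.91%). The F test called 6 of these members (7.59%, against 5.94%). The other settings were not recounted over these genes. In the fit to the 2 groups alone the members that rose with episesamin were Ndufa3 and Ndufa4l2 (2.44%, against 1.87% of all genes). The same 2 rose without lignan-free array 5 (2.44%, against 2%). In both settings the order of the shares rests on counting Ndufa4l2.

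A count without the model was made on the same arrays and the same quantile normalized values. It was not made under median scaling, where the order of the shares above turned. Called genes are among those it counts, so it is no separate support for the shares. The 5 episesamin arrays lay above all 5 lignan-free arrays for 10 members (12.2%, against 3.81% of all genes) and below them for 2 (2.44%, against 3.04%). For sesamolin the numbers were 14 above (17.1%, against 3.7%) and 1 below (1.22%, against 3.22%). For sesamin 1 member, the assembly factor Ndufaf1, lay wholly above (1.22%, against 1.09%) and 0 wholly below (0.821% of all genes). Members that lay above with episesamin without a call were Sdhc, Cox8a, Atp5f1c and Ndufa9, and with sesamolin Ndufa7, Sdhb, Sdhc, Uqcr10, Uqcrc1, Cox8a, Atp5f1c and Atp5f1d. Over the genes above the filter on all 20 arrays, 9 of 79 members lay above with episesamin (11.4%, against 4.54%) and 14 with sesamolin (17.7%, against 4.44%).

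**Figure D1:**
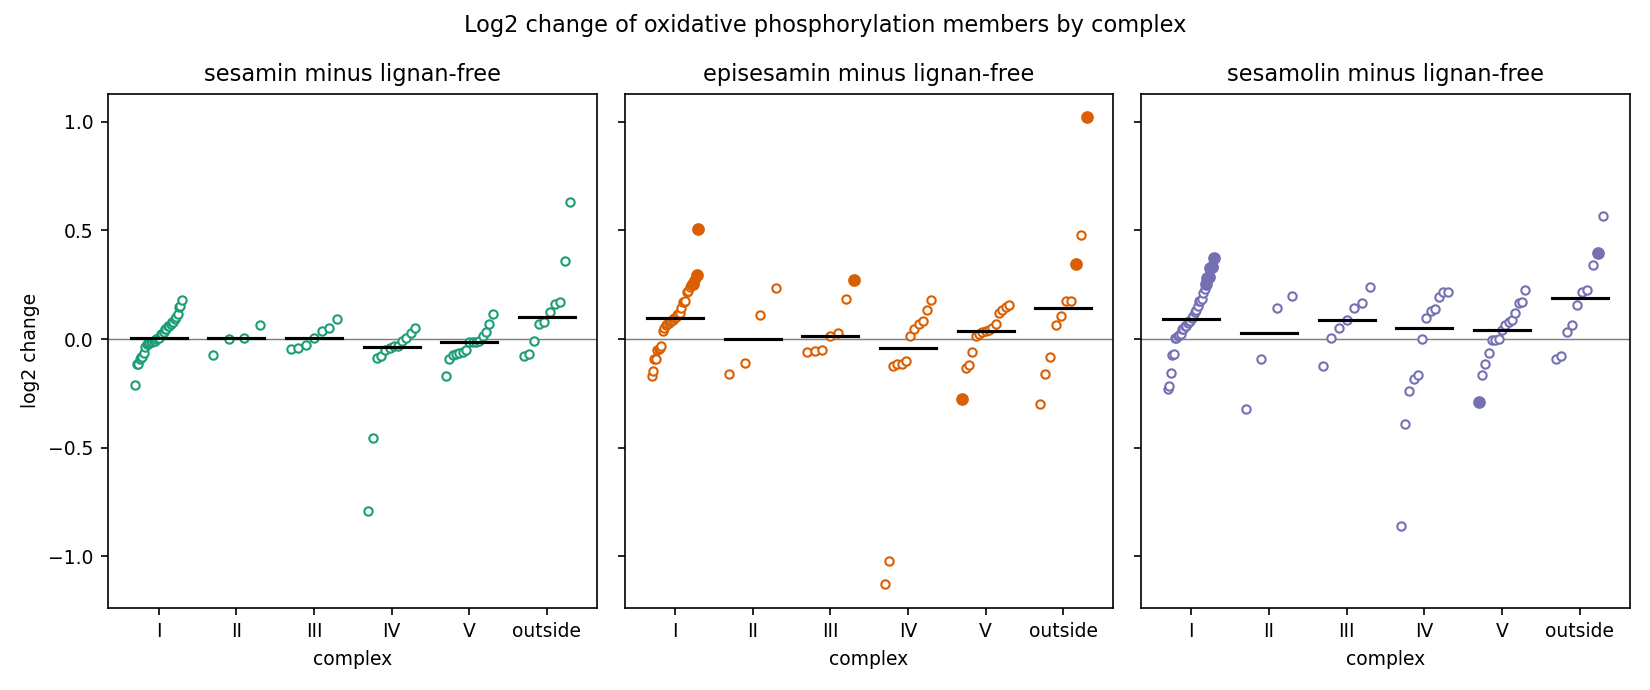
Log2 change of the 82 tested genes against the lignan-free diet, 1 panel per lignan and 1 column per complex, with genes outside the complexes at the right; filled points are called (adjusted p below 0.05, limma) and black lines are medians. The complex I column is shifted upward with episesamin (median 0.10) and sesamolin (0.09) and centred near 0 with sesamin (0.01); under median scaling of the arrays the episesamin median was -0.0026.

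The complexes differed in where their genes lay, and these medians are a description without a test. For complex I the median log2 change was 0.01 with sesamin, 0.10 with episesamin and 0.09 with sesamolin, and 18, 26 and 29 of its 34 genes were above 0. The medians over all genes were -0.01, -0.02 and -0.01, with 48.0%, 47.3% and 48.6% above 0. Complex II stood at 0.00 with sesamin, 0.00 with episesamin and 0.03 with sesamolin, and complex III at 0.00, 0.01 and 0.09. Complex IV stood at -0.04, -0.04 and 0.05, and complex V at -0.01, 0.04 and 0.04. Over the 82 tested members the medians were -0.01, 0.07 and 0.08, with 39, 56 and 60 above 0.

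How these medians stand against 0 depends on how the arrays are scaled. With each array scaled to its median in place of quantile normalization, the median of all genes itself moved to -0.09 with sesamin, -0.13 with episesamin and -0.10 with sesamolin. Under that scaling the members' median was -0.07, -0.03 and 0.02, so its sign with episesamin turned. Taken relative to all genes, the members' median was 0.09 higher with episesamin by quantile normalization and 0.10 higher by median scaling, and 0.09 and 0.12 higher with sesamolin. For complex I the same differences were 0.12 and 0.13 with episesamin, and 0.10 and 0.13 with sesamolin. The calls moved with the scaling as well: under median scaling 1 member rose (Ndufa4l2) and 1 fell with episesamin (Atp5if1), and 0 were called with sesamolin. There 12 of the 82 members had an unadjusted p below 0.05 (limma). All genes were not counted this way under that scaling, so the 12 cannot be set against a background. By quantile normalization 26 members and 20.3% of all genes had such a p with sesamolin. Of all genes, that scaling called 180 higher and 496 lower with episesamin, against 337 and 256 here, and 178 higher and 457 lower with sesamolin, against 380 and 342.

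Array by array, the complex I median was lowest at -0.05 and highest at 0.03 among lignan-free rats, and ran from -0.03 to 0.07 with sesamin. With sesamolin it ran from 0.09 to 0.15, above every lignan-free and every sesamin array. With episesamin it ran from 0.01 to 0.17, and 4 of the 5 arrays stood above 0.12 while episesamin array 5 stood at 0.01, inside the lignan-free range. For complexes II, III, IV and V the arrays of every lignan overlapped the lignan-free arrays.

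**Figure D2:**
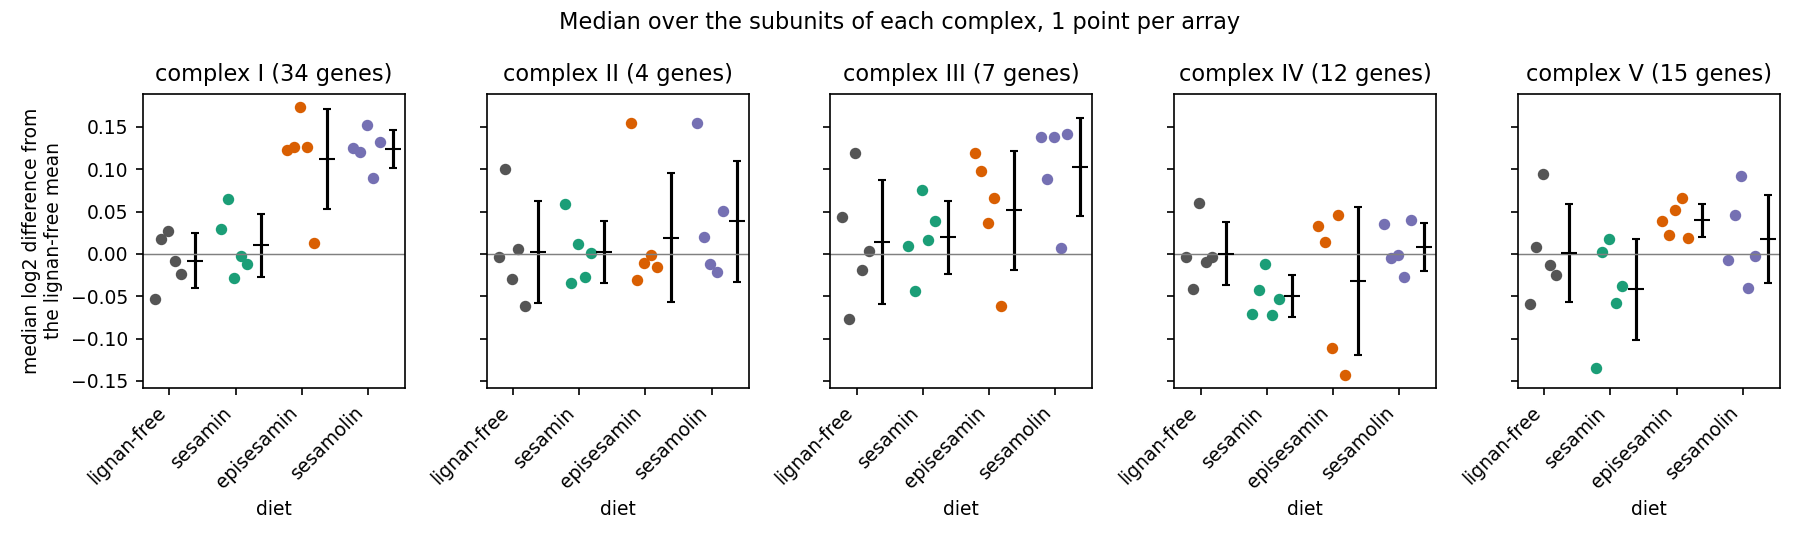
Median over the tested subunits of each complex on every array, as log2 difference from the lignan-free mean of each gene; points are arrays (5 per diet), and the bar beside them is their mean ± SD. In the complex I panel the 5 sesamolin arrays (0.09 to 0.15) lie above the 5 lignan-free arrays (-0.05 to 0.03), and in the other panels arrays of every lignan overlap the lignan-free arrays.

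The promoters of called members are shown because several of them hold the same short run of letters near the transcription start. Promoter sequences of RefSeq (assembly GRCr8, 250 bases before to 50 after the start) were found for 78 of the 86 members, and not for Atp5pd, Cox4i2, Cox6a1, Cox6c, Cox6c-ps1, Ndufa8, Ndufb9 and Uqcr11. The windows printed run from 120 bases before to 30 bases after the start, 5′ to 3′ on the gene's strand, and capitals mark a motif. Only windows that hold one are printed. Of the other called members, Ndufa12, Ndufab1, Ndufaf7 and Ndufc1 hold none of the 5 motifs searched in their 300 bases. Ndufa3 lies at chr1:74515529-74515678 (minus strand), Ndufs7 at chr7:10110469-10110618 (minus strand), Uqcrc1 at chr8:118468103-118468252 (plus strand), Ndufa4l2 at chr7:65242049-65242198 (plus strand) and Atp5mk at chr1:255922018-255922167 (minus strand).
Ndufa3: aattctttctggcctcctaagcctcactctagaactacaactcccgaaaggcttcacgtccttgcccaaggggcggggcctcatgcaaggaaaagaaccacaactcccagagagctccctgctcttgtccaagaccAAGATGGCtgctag
Ndufs7: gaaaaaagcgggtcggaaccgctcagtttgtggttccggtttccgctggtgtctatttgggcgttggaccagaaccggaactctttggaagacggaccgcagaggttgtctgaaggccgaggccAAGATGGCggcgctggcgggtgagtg
Uqcrc1: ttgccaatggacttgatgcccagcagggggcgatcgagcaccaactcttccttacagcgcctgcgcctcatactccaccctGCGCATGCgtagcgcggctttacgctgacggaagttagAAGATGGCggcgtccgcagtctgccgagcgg
Ndufa4l2: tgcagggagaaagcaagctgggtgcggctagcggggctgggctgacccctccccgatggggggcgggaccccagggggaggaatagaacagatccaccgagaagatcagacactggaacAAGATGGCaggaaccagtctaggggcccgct
Atp5mk: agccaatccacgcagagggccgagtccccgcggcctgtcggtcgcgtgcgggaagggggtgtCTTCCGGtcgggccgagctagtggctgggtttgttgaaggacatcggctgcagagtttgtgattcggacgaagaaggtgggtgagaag
The capitals in the windows of Ndufa3, Ndufs7 and Ndufa4l2 are AAGATGGC, the letters of the YY1 motif. Uqcrc1 has the same letters and, upstream, GCATGCGC, the motif of NRF1, read on the opposite strand. Atp5mk has CCGGAAG, the core bound by ETS factors such as GABPA, also on the opposite strand. AAGATGGC also holds ATG, the letters of a start codon. In these windows it begins between 1 base before and 17 bases after the transcription start. Whether it opens the coding sequence there was not tested.

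These motifs were searched on both strands of the 300-base windows. The YY1 letters were in 17 of the 78 member promoters (21.8%), in 4 of the 9 called members with a promoter (44.4%) and in 3.44% of all 27457 promoters. The 4 include Ndufa4l2, which was tested only because of the groups in which it was higher. The share among the 9, a list called from these same data, was not tested against the other shares. The NRF1 letters were in 11.5% of member promoters and 2.66% of all, and in 1 of the 9. The ETS letters were in 28.2% of member promoters, 9.22% of all and 1 of the 9. AAGGTCA, the site of estrogen-related receptors, was in 14.1% of members, 4.37% of all and 0 of the 9. The PPAR response element (AGGTCA repeated after 1 base, which overlaps AAGGTCA) was in 0 of the 78 and in 0.0583% of all. A match of letters is a description of the window and no evidence that a factor binds there.

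Within complex I, Ndufa3 differed most between diets. It encodes a small accessory subunit of the membrane arm. Its intensity was 2828, 3134, 2652, 2710 and 2995 on the lignan-free arrays, 2401, 2809, 2202, 2500 and 2473 with sesamin, 4880, 3888, 3864, 3888 and 3912 with episesamin, and 4183, 3392, 4504, 3194 and 3416 with sesamolin. All episesamin and sesamolin arrays lay above all lignan-free arrays, and 4 of the 5 sesamin arrays lay below the lignan-free range. The log2 change was 0.51 ± 0.10 (SE, n = 5 per diet, adjusted p = 0.00684 by limma) with episesamin and 0.37 ± 0.10 (adjusted p = 0.039) with sesamolin. With sesamin it was -0.21 ± 0.10 (adjusted p = 0.674).

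Ndufab1 is the mitochondrial acyl carrier protein, which is both a complex I subunit and a carrier in mitochondrial fatty acid synthesis. Its intensity was 1582, 1791, 1726, 1849 and 1826 on the lignan-free arrays, 1791, 2000, 1878, 1760 and 1826 with sesamin, 2056, 2009, 2053, 2242 and 2110 with episesamin, and 2153, 2084, 2285, 2178 and 2331 with sesamolin. Every episesamin and sesamolin array was above every lignan-free array, and sesamin overlapped the lignan-free range. It rose in log2 by 0.26 ± 0.07 (adjusted p = 0.0348, limma) with episesamin and by 0.33 ± 0.07 (0.00656) with sesamolin, and its value with sesamin was 0.08 ± 0.07 (0.879).

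Ndufa12, an accessory subunit of the matrix arm, gave 1931, 1850, 2033, 2178 and 1979 on the lignan-free arrays, 2075, 2110, 2245, 1994 and 1869 with sesamin, 2266, 2497, 2426, 2612 and 2444 with episesamin, and 2463, 2172, 2466, 2537 and 2513 with sesamolin. The episesamin arrays were all above the lignan-free ones, and sesamolin array 2 fell short of lignan-free array 4 while the other 4 were above. In log2 the difference from no lignan was 0.30 ± 0.07 (adjusted p = 0.0253, limma) with episesamin and 0.28 ± 0.07 (0.0282) with sesamolin, against 0.05 ± 0.07 (0.943) with sesamin.

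The other 3 called complex I subunits passed the test with sesamolin and not with episesamin, where they had log2 changes of 0.17 to 0.27. The difference between these 2 lignans was not called for any of them. Ndufb9, an accessory subunit of the membrane arm, gave 4183, 4342, 4261, 4479 and 4457 on the lignan-free arrays, 4383, 4276, 4246, 3957 and 4530 with sesamin, 4749, 4962, 5152, 5312 and 4350 with episesamin, and 5230, 5323, 4920, 5004 and 5396 with sesamolin. Its sesamolin arrays were all above the lignan-free and sesamin arrays, with a log2 change of 0.25 ± 0.07 (adjusted p = 0.0355, limma).

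Ndufc1, another membrane-arm accessory subunit, gave 2410, 2862, 2779, 2585 and 2469 on the lignan-free arrays, 3476, 2625, 2686, 2927 and 2844 with sesamin, 3563, 3434, 2784, 3061 and 2765 with episesamin, and 3211, 3440, 3423, 3130 and 3205 with sesamolin. The sesamolin arrays lay above all lignan-free arrays, and 1 sesamin array was higher than all of them. The log2 change with sesamolin was 0.33 ± 0.09 (adjusted p = 0.044, limma).

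Ndufs7 is one of the core subunits that carry iron-sulfur clusters, next to the ubiquinone site. Its intensity was 2041, 2208, 2413, 2024 and 2122 on the lignan-free arrays, 2335, 2556, 2219, 2128 and 2193 with sesamin, 2497, 2576, 2947, 2724 and 2335 with episesamin, and 2804, 2605, 2523, 2458 and 2737 with sesamolin. The sesamolin arrays were all above the lignan-free arrays, and the lowest episesamin array was below the highest lignan-free one. It rose in log2 by 0.28 ± 0.08 (adjusted p = 0.045, limma) with sesamolin, and its value with episesamin was 0.27 ± 0.08 (0.0565), which did not pass the test.

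The other core subunits of complex I were not called. The 6 core genes measured had a median log2 change of 0.03 with sesamin, 0.14 with episesamin and 0.12 with sesamolin, and the 28 accessory genes had 0.01, 0.09 and 0.09. Ndufs1, the largest subunit of the electron input module, had 0.17 ± 0.09 (adjusted p = 0.323, limma) with episesamin and 0.18 ± 0.09 (0.292) with sesamolin. Ndufv1, which binds NADH and FMN, had 0.07 ± 0.07 (0.642) and 0.06 ± 0.07 (0.691). Ndufs4, an accessory subunit needed for assembly of that module, had 0.11 ± 0.10 (0.579) and 0.12 ± 0.10 (0.517). Closest to the threshold were Ndufa7 with sesamolin, at 0.33 ± 0.10 (0.0627), and Ndufa9 with episesamin, at 0.22 ± 0.08 (0.105). Ndufa1, Ndufa2, Ndufa8, Ndufa6 and Ndufa11 had negative log2 changes with both episesamin and sesamolin, down to -0.23 for Ndufa2 with sesamolin.

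Complex II consists of 4 nuclear subunits and also works in the TCA cycle. Its genes did not lie to one side. Sdhc, a membrane anchor, had a log2 change of 0.23 ± 0.08 (adjusted p = 0.0847, limma) with episesamin and 0.20 ± 0.08 (0.137) with sesamolin. Sdhb, the iron-sulfur subunit, had 0.11 ± 0.07 (0.378) and 0.14 ± 0.07 (0.221). Sdha, the flavoprotein that oxidises succinate, had -0.16 ± 0.12 (0.480) and -0.32 ± 0.12 (0.121), and Sdhd, the other anchor, had -0.11 ± 0.08 (0.498) and -0.09 ± 0.08 (0.564). With sesamin all 4 lay between -0.08 and 0.07.

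In complex III the core protein Uqcrc1 was called with episesamin. Its intensity was 2270, 2130, 2416, 2182 and 2069 on the lignan-free arrays, 2254, 2560, 2448, 2236 and 2298 with sesamin, 2469, 2638, 2974, 2662 and 2612 with episesamin, and 2432, 2648, 2594, 2638 and 2770 with sesamolin. All episesamin and sesamolin arrays were above all lignan-free arrays, and sesamin overlapped both. The log2 change was 0.27 ± 0.07 (adjusted p = 0.0367, limma) with episesamin, 0.24 ± 0.07 (0.0542) with sesamolin and 0.09 ± 0.07 (0.856) with sesamin. The second core protein, Uqcrc2, had -0.06 ± 0.09 (0.780) with episesamin and -0.12 ± 0.09 (0.471) with sesamolin. The Rieske iron-sulfur protein Uqcrfs1 had 0.18 ± 0.08 (0.232) and 0.15 ± 0.08 (0.351), and the small subunit Uqcr10 had 0.03 ± 0.07 (0.879) and 0.17 ± 0.07 (0.197).

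Complex IV, cytochrome c oxidase, had 12 tested subunits with both signs. Cox4i1, the isoform of subunit 4 found in most tissues, had a log2 change of 0.08 ± 0.07 (adjusted p = 0.541, limma) with episesamin and 0.13 ± 0.07 (0.295) with sesamolin. Cox5b had 0.01 ± 0.08 (0.941) and 0.14 ± 0.08 (0.338), Cox6a1 0.13 ± 0.08 (0.382) and 0.22 ± 0.08 (0.132), and Cox8a 0.18 ± 0.07 (0.141) and 0.19 ± 0.07 (0.0996). On the other side, Cox6c had -0.11 ± 0.08 (0.473) and -0.18 ± 0.08 (0.218). Cox8a had the lowest F-test p of the complex IV genes, with an adjusted p of 0.0585. The probe set used for Cox5a was variable, from 81.8 to 460 over the 20 arrays, and its log2 changes were -0.11 ± 0.37 (0.904) and 0.22 ± 0.37 (0.789).

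The muscle-type isoform Cox7a1 and the testis-type Cox6b2 had the widest log2 changes of complex IV and were close to the filter. Cox7a1 had -1.02 ± 0.37 (adjusted p = 0.129, limma) with episesamin, and a level of 40.4 ± 15.2 (SD, n = 5) without lignan and 19.6 ± 16.1 with episesamin. Cox6b2 stood at 20.1 ± 6.66 without lignan and 6.67 ± 5.80 with episesamin. It passed the filter on 5 arrays, none of them with episesamin, where its highest value was 14.8. Neither was called.

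In complex V the 1 called gene, Atp5mk, fell. It encodes a small membrane-embedded protein of the ATP synthase that supports its dimers. Its intensity was 2676, 2594, 3156, 2625 and 2931 on the lignan-free arrays, 2363, 2719, 3001, 2704 and 2609 with sesamin, 2444, 2259, 2139, 2397 and 2276 with episesamin, and 2397, 2389, 2149, 2208 and 2259 with sesamolin. Every episesamin and sesamolin array lay below every lignan-free array, and 1 sesamin array was also below that range. Its log2 change came to -0.28 ± 0.08 (adjusted p = 0.0492, limma) with episesamin, -0.29 ± 0.08 (0.035) with sesamolin and -0.06 ± 0.08 (0.929) with sesamin.

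The catalytic F1 part of complex V showed no call. Atp5f1a, the alpha subunit, had a log2 change of 0.04 ± 0.07 (adjusted p = 0.819, limma) with episesamin and -0.01 ± 0.07 (0.978) with sesamolin. Atp5f1b, the catalytic beta subunit, had 0.07 ± 0.06 (0.547) and -0.01 ± 0.06 (0.975), and Atp5f1c, the central stalk gamma subunit, had 0.16 ± 0.07 (0.181) and 0.17 ± 0.07 (0.142). In the peripheral stalk Atp5po had 0.15 ± 0.09 (0.393) and 0.17 ± 0.09 (0.320), and Atp5pf had 0.02 ± 0.09 (0.917) and 0.09 ± 0.09 (0.619).

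Among the genes outside the complexes, Ndufaf7 rose with episesamin and sesamolin. It is a methyltransferase that acts early in complex I assembly. Its intensity was 104, 96.4, 98.3, 105 and 87 on the lignan-free arrays, 125, 108, 111, 97.3 and 96.5 with sesamin, 114, 127, 131, 134 and 123 with episesamin, and 129, 139, 123, 139 and 124 with sesamolin. All episesamin and sesamolin arrays were above all lignan-free arrays, and 3 of the 5 sesamin arrays were too. Its log2 change came to 0.34 ± 0.08 (adjusted p = 0.0197, limma) with episesamin, 0.40 ± 0.08 (0.00714) with sesamolin and 0.12 ± 0.08 (0.813) with sesamin. The other assembly factors among the members, Ndufaf1, Ndufaf3, Ndufaf4, Ndufaf5 and Ndufaf8, had positive log2 changes with episesamin and sesamolin, from 0.03 to 0.48, and none was called.

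Ndufa4l2, a relative of the complex IV subunit Ndufa4 that is known as a hypoxia-inducible gene, had the widest called change at a low intensity. Its intensity was 4.24, 12.9, 14.9, 7.66 and 14.1 on the lignan-free arrays, 25.1, 14.6, 15.7, 31.8 and 12.4 with sesamin, 35.8, 30.5, 24.4, 23.5 and 21.4 with episesamin, and 21.2, 20, 19.3, 12 and 18.1 with sesamolin. All 5 episesamin arrays lay above all lignan-free arrays and above the filter at 17.8, while no lignan-free array reached the filter. The log2 change was 1.02 ± 0.22 (adjusted p = 0.00887, limma) with episesamin, 0.63 ± 0.22 (0.411) with sesamin and 0.57 ± 0.22 (0.138) with sesamolin. It was tested only because of the groups in which it was higher, so its call is no evidence on the set as a whole.

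**Figure D3:**
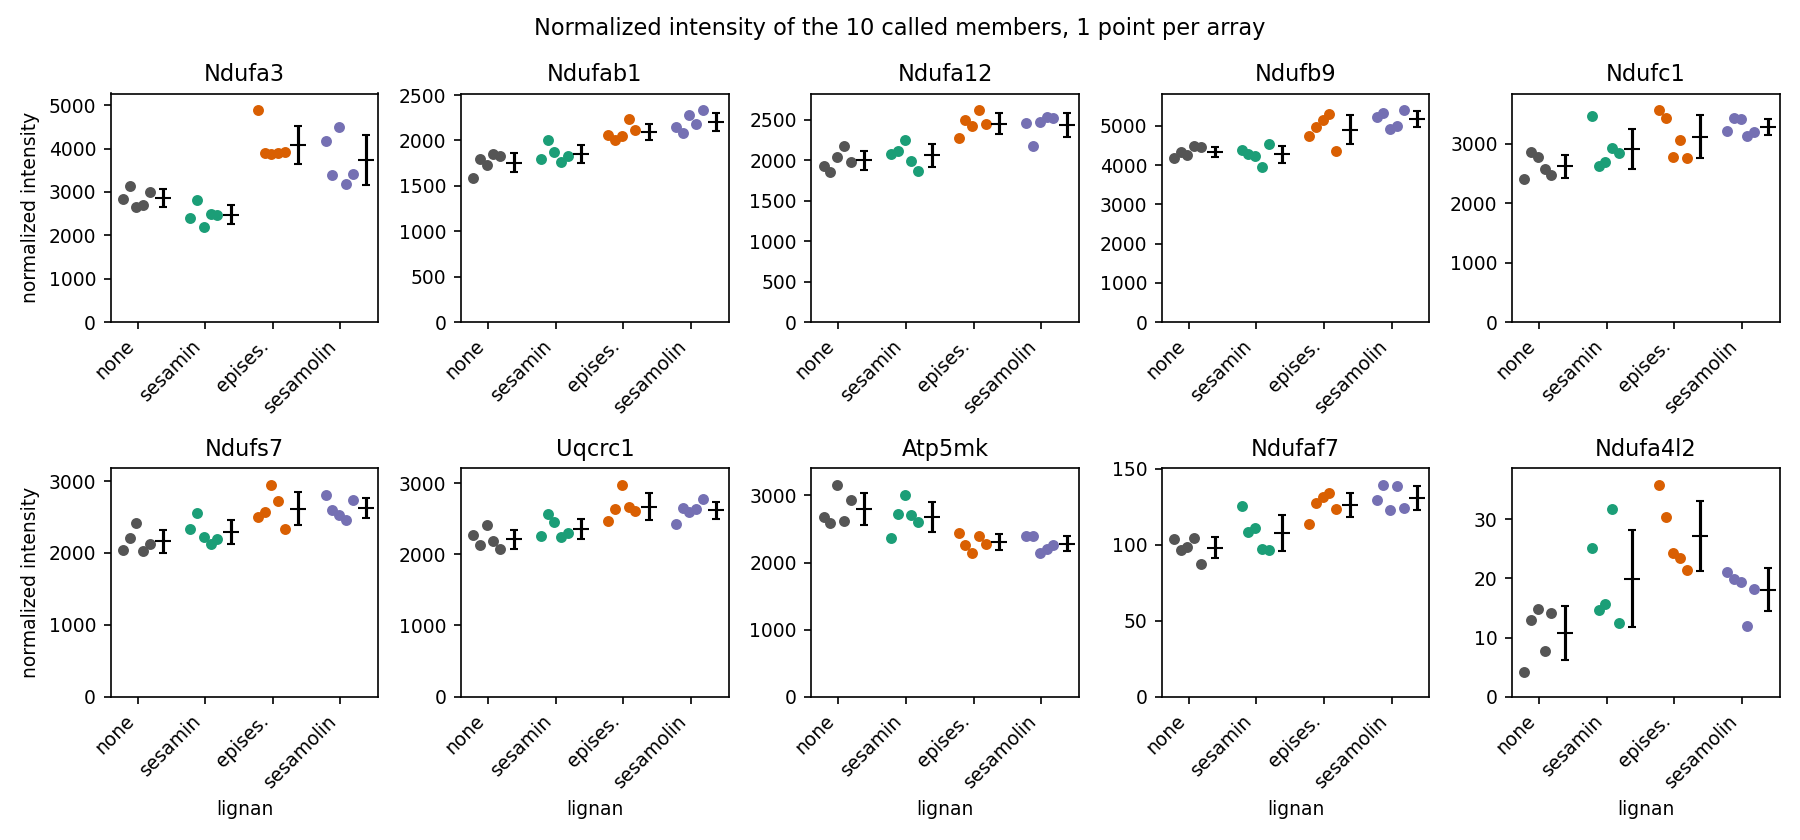
Quantile normalized intensity of the 10 called genes by diet; points are arrays (5 per diet), the bar beside them is their mean ± SD, and each panel has its own axis from 0. Ndufa3 is highest with episesamin (3864 to 4880) and lowest with sesamin (2202 to 2809), and Atp5mk is lower with episesamin and sesamolin than in any lignan-free rat.

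The lignans were compared with each other at the same dose and time in 3 pairs, with p-values adjusted over all genes within each pair. Between the epimers, Ndufa3 was higher with episesamin than with sesamin by 0.72 ± 0.10 in log2, which is 1.65-fold (95% interval 0.50 to 0.94, adjusted p = 0.00106, limma). It was the 1 member called in that pair (1.22%, against 0.821% of all genes higher and 0.406% lower). The 5 episesamin arrays and the 5 sesamin arrays did not overlap. The next lowest adjusted p in that pair was that of Ndufa9, at 0.29 ± 0.08 (0.0785).

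Between sesamolin and sesamin, Ndufa3 was higher with sesamolin by 0.58 ± 0.10 in log2 (adjusted p = 0.00625, limma) and Ndufb9 by 0.27 ± 0.07 (0.0473). These 2 are 2.44% of the members, against 1% of all genes higher and 0.812% lower. Between sesamolin and episesamin 0 members and 0% of all genes were called in either direction (limma). An unadjusted p below 0.05 was found for 2 members (2.44%), against 662 of all genes (5.72%). The 95% interval of the difference between sesamolin and episesamin lay within 0.5 log2 units of 0 for 77 of the 82 members, with a median margin of 0.17 on either side. For Ndufa3 the difference was -0.14, with an interval of -0.35 to 0.08. That no call was made does not show that the 2 lignans act alike on these genes.

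Over complex I, 30 of 34 genes were higher with episesamin than with sesamin, with a median log2 difference of 0.10, and 27 of 34 were higher with sesamolin than with sesamin, with a median of 0.07. Between sesamolin and episesamin 18 of 34 were higher with sesamolin and the median was 0.00. The median over all genes was 0.00 in each of these pairs. These comparisons share arrays and are given side by side as descriptions.

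The calls differed in how far they depended on single arrays. Ndufa3 between episesamin and sesamin was called in all 33 settings, including every one that left out an array. With episesamin against no lignan, Ndufa3 and Ndufa4l2 were called without any one array (highest adjusted p 0.0214 and 0.0291, limma). The same held with sesamolin for Ndufab1 (0.0211) and Ndufaf7 (0.0244), and for Ndufa3 between sesamolin and sesamin (0.0244). With episesamin the call of Ndufaf7 ended without lignan-free 5 or episesamin 4 (up to 0.061), and that of Ndufa12 without lignan-free 1, 2 or 5 or episesamin 4 (up to 0.0679). That of Ndufab1 ended without lignan-free 1, 2, 3 or 5 or episesamin 1, 3, 4 or 5 (up to 0.0933). That of Uqcrc1 ended without lignan-free 1, 2, 4 or 5 or episesamin 2, 3, 4 or 5 (up to 0.0994).

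With sesamolin the call of Atp5mk ended without lignan-free 3 or 5, or without sesamolin 3, 4 or 5 (limma, adjusted p up to 0.0837). Those of Ndufa12 and Ndufa3 ended without 7 arrays each, lignan-free 1, 2 or 5 or sesamolin 1, 3, 4 or 5 for Ndufa12 (up to 0.0722) and lignan-free 1, 3, 4 or 5 or sesamolin 1, 3 or 5 for Ndufa3 (up to 0.102). That of Ndufb9 ended without any lignan-free array or sesamolin 1, 2, 4 or 5 (up to 0.082). The calls of Ndufc1 and Ndufs7 with sesamolin, of Atp5mk with episesamin and of Ndufb9 between sesamolin and sesamin ended without any of 12, 15, 18 and 18 of the 20 arrays (up to 0.1, 0.107, 0.120 and 0.123). They sit at the threshold.

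Left out one at a time, the arrays moved the number of called members between 2 and 7 with episesamin and between 2 and 9 with sesamolin. With episesamin the number moved by over 1.5 times without lignan-free 1, 2 or 5 or episesamin 3 or 4, and with sesamolin without lignan-free 1, 2, 4 or 5 or any sesamolin array. Without the 6 arrays of low intensity, 1 member was called with each of episesamin and sesamolin, Ndufaf1 in both cases, and 272 and 371 genes in all. That fit has 14 arrays. The median over complex I was lowest at 0.08 and highest at 0.12 with episesamin, and 0.08 and 0.10 with sesamolin, over the fits that left out 1 array.

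Other genes of the pathway were taken from lists by function. The counts in these lists stand beside the shares of all genes and were not tested against them. With sesamin 0.397% of all genes rose and 0.0346% fell. With episesamin 2.91% rose and 2.21% fell, and with sesamolin 3.28% rose and 2.95% fell. Of 42 assembly factors tested, 6 of which are members, 1 rose with episesamin (Ndufaf7) and 3 rose with sesamolin: Ndufaf7, Surf1 with 0.30 ± 0.08 (adjusted p = 0.0318, limma) and Cox15 with 0.42 ± 0.11 (0.032), the last 2 acting in complex IV assembly and heme A synthesis. The list's median was 0.10, 0.13 and 0.18 in log2 with sesamin, episesamin and sesamolin. Of 19 genes for electron carriers and entry points, 3 rose with episesamin, and 2 rose and 1 fell with sesamolin. Gpd2, the mitochondrial glycerol-3-phosphate dehydrogenase, had 1.45 ± 0.20 (0.000129) with episesamin and 1.33 ± 0.20 (0.000354) with sesamolin. Etfb, a subunit of the flavoprotein that takes electrons from acyl-CoA dehydrogenases, had 0.39 ± 0.07 (0.00134) and 0.43 ± 0.07 (0.000491). Etfdh, which passes these electrons to ubiquinone, had 0.43 ± 0.12 (0.0427) with episesamin, and Coq10a, a ubiquinone-binding protein, fell by 0.59 with sesamolin (SE 0.15, 0.0217).

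Of 12 TCA cycle genes 2 rose with each of episesamin and sesamolin, among them Suclg1, a subunit of succinyl-CoA ligase, with 0.65 ± 0.07 (adjusted p = 6.22e-06, limma) and 0.55 ± 0.07 (5.11e-05). Of 9 carriers and uncoupling genes 1 rose, Ucp3 with episesamin, at 1.24 ± 0.33 (0.0371). Of 19 regulators of mitochondrial gene expression none rose and 2 fell with sesamolin: Polg2, the accessory subunit of the mitochondrial DNA polymerase, with -1.28 ± 0.26 (0.00532), and Nrf1, a factor that activates respiratory genes, with -0.72 ± 0.20 (0.0354).

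The mitochondrial ribosome, which makes the subunits encoded by mitochondrial DNA, had median log2 changes of 0.04, 0.11 and 0.14 over 73 genes with sesamin, episesamin and sesamolin. Of these 0, 4 and 7 rose, and 1 fell with sesamolin. Mrps18b had 0.53 ± 0.09 (adjusted p = 0.00132, limma) with episesamin and 0.48 ± 0.09 (0.00301) with sesamolin. Over 45 cytosolic ribosome genes the medians were -0.07, -0.07 and -0.09, and 0, 2 and 3 fell. Mitochondrial fatty acid oxidation, which feeds the chain, had medians of 0.44, 0.76 and 0.70 over 14 genes, of which 9, 12 and 12 rose. Eci1, an enoyl-CoA isomerase, had 2.04 ± 0.12 (2.34e-09), 2.77 ± 0.12 (1.02e-11) and 2.77 ± 0.12 (1.06e-11). The largest log2 change of a called subunit, 0.51 for Ndufa3, was below the median of that list with episesamin.

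**Figure D4:**
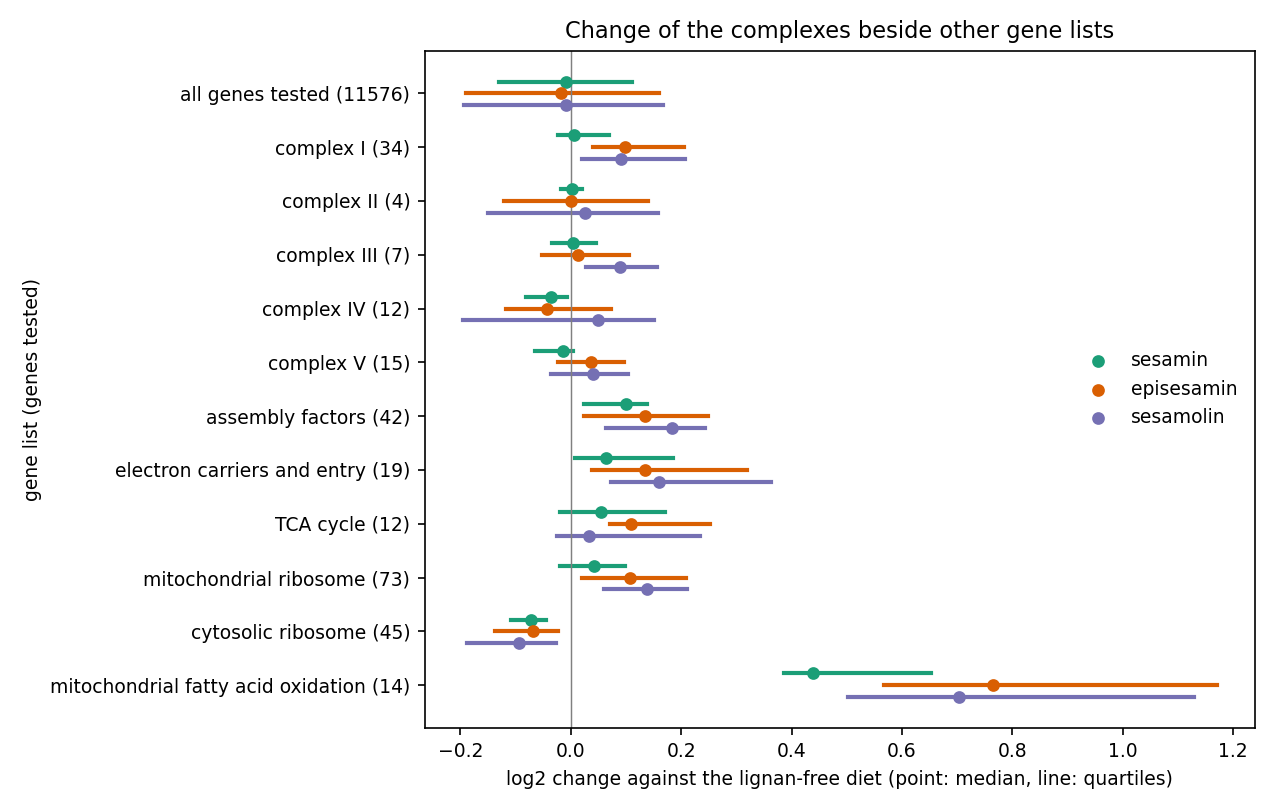
Median (point) and quartiles (line) of the log2 change against the lignan-free diet for all genes tested, the 5 complexes and other mitochondrial and ribosomal gene lists, with the number of genes tested in brackets. Complex I lies near 0.1 with episesamin and sesamolin (-0.0026 and 0.03 under median scaling), below mitochondrial fatty acid oxidation (0.76 and 0.70) and on the other side of 0 from the cytosolic ribosome (-0.07 and -0.09). The medians of the assembly factors and the mitochondrial ribosome lie above that of complex I with both lignans.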

How the data were processed

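Liver RNA of 20 rats was hybridised as biotin-labelled cRNA, 1 array per rat. The values deposited by the authors are linear intensities of 31099 probe sets, with array means from 159 to 271, so no common scale had been set. The software behind them is not given in these sources. Probe sets were named through the platform's annotation: 20826 non-control probe sets had 1 symbol, 436 had several and 9831 were not listed. The numbers of arrays, 5 per diet, limit the precision.

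Arrays were quantile normalized, an offset of 5.85 (20th percentile) was added and log2 was taken. Probe sets above 17.8 (40th percentile) on at least 5 arrays were kept, and each gene was represented by its brightest probe set (11576 genes). Limma 3.58.1 in R 4.3.3 fitted 4 diet means to all 20 arrays (16 residual and 2.596 prior degrees of freedom). P-values are two-sided and adjusted (Benjamini-Hochberg) over all genes of a comparison, and intervals cover 95%. The fit was tested on simulated data, with known changes added to independent noise for each gene. These values were drawn after the normalization step. The simulation therefore tests neither the normalization nor the effect of correlation between genes. No 2 columns were identical. Of 30 same-numbered pairs, 10 had a correlation of deviations over 0.1 (range -0.06 to 0.25). Pairs of arrays numbered 1 ran from 0.13 to 0.25. Whether same-numbered arrays share a source of variation was not tested. The main model has no block, and the fit with the replicate number as a block is given with the other settings. Rats are separate animals by the labels.

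Named genes are every called member, the 2 uncalled members of each complex with the lowest F-test p, and a list by role, with up to 4 called genes of each pathway list. Cox7a2, which is in the list by role, is not a member by the symbol rule and is not analysed here as a gene. Assignment to complexes was by symbol, with Ndufa4 in complex IV. The members and lists were chosen with earlier results of these data known. Alternatives in scaling, offset, filter, probe set choice, model and arrays were run, and every probe set on its own was added after seeing the data.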

Additional observations from a re-analysis of the deposited data

Results flagged for a closer look

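An array stood apart from its diet's other 4 in 14 of 176 groups of 5 checked by Dixon's test at 95%, where chance gives about 1 in 20. Among called genes, Ndufa3 read 4880 on episesamin array 1 against 3864 to 3912 on the others, Ndufa12 read 2172 on sesamolin array 2 against 2463 to 2537, and Ndufa4l2 read 11.98 on sesamolin array 4 against 18.15 to 21.16. Sesamolin array 1 was high for Cox5a (459.6 against 131.8 to 186.3), Uqcr10 (5934 against 5099 to 5301) and Cox8b (11.33 against 1.554 to 2.787, all below the filter). Cox8b was also high on sesamin array 4, at 10.23, and Cox6a2 on sesamolin array 5, at 26.77. Ndufs4 read 203.4 on lignan-free array 1 against 167.8 to 170.8, Ndufv1 read 1699 on sesamin array 2 against 1484 to 1514, and Sdhd read 2886 on episesamin array 1 against 2320 to 2423.

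The median over the 82 tested genes stood apart on lignan-free array 3, at 0.0668 against -0.0225 to -0.0014, and on episesamin array 5, at -0.0165 against 0.0706 to 0.1027. The complex II median was 0.154 on episesamin array 1, against -0.0302 to -0.0014.

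Effects of 2 lignans differed from each other by test for Ndufa3, by 0.719 in log2 between episesamin and sesamin and by 0.5837 between sesamolin and sesamin. Ndufb9 differed by 0.2747 between sesamolin and sesamin. The adjusted p-values are given with the comparison of the lignans.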

How the results depend on the processing

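Alternatives kept the direction of every gene and comparison called in the main analysis. Atp5if1, not called there, was called lower with episesamin under median scaling and with the replicate block, and higher with sesamolin with the mean of probe sets (0.51 in log2). Median scaling, a fit to the 2 groups compared alone and the fit without the 6 dim arrays (14 arrays left) ended most calls. Members called (main count first) with episesamin were 7: 2 under median scaling, 4 with no filter, 11 with trended and robust eBayes, 2 with only the groups compared, 1 without the dim arrays, and 2 to 7 without 1 array. With sesamolin they were 8: 0, 3, 13, 1 and 1 in the same order, and 2 to 9 without 1 array. At 0, 12 had an unadjusted p under 0.05 (limma), with no such count over all genes to set beside it. Between sesamolin and sesamin the members called were 2: 0 under median scaling, 1 with no filter, 1 with the mean of probe sets, 6 with trended and robust eBayes, 0 with only the groups compared, 1 with actin integrity (3′ over 5′ signal) in the model, 1 without the dim arrays, and 1 to 2 without 1 array. Between episesamin and sesamin they were 1: 2 with the 60th percentile filter and 4 with trended and robust eBayes. The F test called 7: 2 under median scaling, 4 with no filter, 11 with trended and robust eBayes, 11 with array weights, 2 without the dim arrays and 3 to 6 without 1 array.

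With the replicate number as a block, 7, 10 and 1 members were called with episesamin, with sesamolin and between sesamolin and sesamin, and 4 by the F test. Set against the arrays of other diets, 10 of 20 arrays correlated best with an array of their own number. That is more than equal odds over the 5 numbers would give. The block ended the calls of Atp5mk with episesamin (Atp5if1 was gained) and of Ndufb9 between sesamolin and sesamin, and added Ndufa7 and Uqcrc1 with sesamolin. With array brightness or the actin term, 5 were called with episesamin: Atp5mk, Ndufab1 and Uqcrc1 were lost and Ndufaf1 gained. With sesamolin brightness gave 8 (Ndufb9 and Ndufs7 lost, Cox6a1 and Ndufaf1 gained) and the actin term 7 (Ndufa3 and Ndufc1 lost, Uqcrc1 gained).

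Under median scaling the medians with sesamin were -0.0696 over the members and -0.0618, -0.0641, -0.0584, -0.1066 and -0.0976 over complexes I to V. With episesamin they were -0.033 over the members and -0.0026, -0.0809, -0.1217 and -0.0387 over complexes I, II, IV and V. With sesamolin they were 0.0207 over the members and 0.0321 over complex I, and between sesamolin and episesamin 0.0499 over the members. The complex IV median also moved. With sesamolin it was 0.1132 with no filter, 0.1132 with the 60th percentile filter, -0.0163 with the actin term, and -0.0369 to 0.058 without 1 array. With episesamin it was 0.0297 with the 60th percentile filter, 0.0342 with the actin term, 0.0478 once dim arrays were left out, and -0.0673 to 0.0248 without 1 array. Between episesamin and sesamin it was 0.0328 with the actin term and 0.0461 with dim arrays left out, and between sesamolin and sesamin 0.0429 to 0.1144 without 1 array. The complex III median between sesamolin and episesamin was -0.0004 to 0.0715 without 1 array. Where arrays or genes were not left out, the cause of these moves was not tested. Dim genes limit what can be read: Ndufa4l2, Cox6b2 and Cox7a1 lie near the filter.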

Other observations

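Atp5if1, the inhibitor of the ATP synthase, was measured by 3 probe sets that disagreed. The brightest, which stands for the gene, had a log2 change of -0.30 with episesamin and -0.09 with sesamolin at a mean intensity of 218. The other two, at means of 46.1 and 55.5, had 0.62 and 0.80 with episesamin and 0.77 and 0.86 with sesamolin, and both were called with sesamolin when each of 21067 probe sets was tested on its own (adjusted p = 0.0495 and 0.0365, limma). Which of them follows the transcript was not tested.

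A further 7 probe sets pair a symbol of the rule with a second gene or pseudogene, so they are not members. They hold Atp5mc1, Atp5mc2, Cox5a, Cox7a2, Ndufa10, Ndufs5 and Uqcrb. None was called in that fit. The probe set shared by Cox5a and LOC100361008 had a mean of 4364 and a log2 change of 0.16 ± 0.08 with sesamolin (adjusted p = 0.334, limma), while the probe set named for Cox5a alone gave 0.22 ± 0.37.

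Within diets, pairs of complex V genes had a mean correlation over the 20 arrays of 0.14, complex I pairs 0.07, complex IV pairs 0.06 and pairs of cytosolic ribosome genes 0.17, against 0.0003 for all genes. These are descriptions of arrays that share a scaling.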
